A study of Homo sapiens with 9 samples.

Results

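Interferon response genes are the genes that a cell switches on when interferon, or foreign nucleic acid sensed inside the cell, signals an infection. A list of 42 such genes was followed in PANC-1, an established human cell line of epithelial type from a pancreatic carcinoma, after transfection with a synthetic microRNA. Members were found by gene symbol, using the array's probe sets that carry a single symbol, and 41 of the 42 were measured among 14232 genes. STAT2 was not analysed here. Each measured member was represented by 1 probe set.

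There were 9 arrays, 1 for each of 3 biological replicates in 3 groups, with RNA extracted 72 h after transfection. Cells of the miR-520f group received 20 nM of a miR-520f mimic with a lipid reagent. Cells of the control mimic group received 20 nM of a negative control mimic with the same reagent. The non-transfected group received only the lipid reagent (Lipofectamine RNAiMAX), so both mimic groups carried a short double-stranded RNA that the non-transfected cells did not. One cell line, 1 dose and 1 time were sampled, and p-values measure the spread between these cultures. Values were log2 intensities normalized between arrays, from 2.23 to 13.6 with array medians of 4.22 to 4.34, and the number of arrays limits their precision. Of the epithelial markers examined, KRT8, KRT18, KRT19, EPCAM and SOX9 averaged 11.5, 8.92, 8.63, 8.29 and 8.24 and CDH1 5.87, while KRT7 and CFTR stood at 3.47 and 3.07. With miR-520f, EPCAM (1.57), CDH1 (1.07) and KRT18 (0.41) were higher and KRT19 (-0.75) was lower than in non-transfected cells, as log2 differences, and with the control mimic 0 of these 8 were called by limma (1 was lower at an unadjusted p under 0.05); their part in the results was not tested. Of 7 leukocyte markers listed 5 were measured, and PTPRC, CD3E, CD14 and LYZ averaged between 2.75 and 3.90, near the lower end of the scale. CD68, a lysosomal protein also made outside the immune system, averaged 8.08 and was lower than in non-transfected cells with miR-520f (log2 difference -1.31) and with the control mimic (-0.41), as many members were, and its part in their results was not tested. Of 6 fibroblast and 4 endothelial markers, COL1A1 averaged 7.84 and was lower with the control mimic (-0.59), and the other 9 averaged 2.79 to 3.65, with no call for either mimic over non-transfected cells. Control mimic replicate 1 lay farthest from its group, at a root mean square deviation of 0.169, against 0.0698 to 0.131 on the other 8 arrays.

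Interferons bind receptors on the cell surface, whose kinases activate STAT proteins. Together with IRF9, these form a complex that binds a short promoter element, the interferon-stimulated response element (ISRE). STAT dimers bind a second element, GAS. The genes so induced encode RNA sensors, proteins that bind or cut foreign RNA, the ubiquitin-like modifier ISG15 and its enzymes, ADP-ribosyltransferases, and proteins that load peptides for display to T cells. Many epithelial tumour lines keep part of this set switched on without added interferon.

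The microRNA of the study has 2 arms, and the labels name miR-520f without the arm. Both mature sequences are shown because the mimic distinguishes the microRNA group from the control mimic group. They lie on the + strand of chromosome 19 in GRCh38.p14, at chr19:53682213-53682234 for the 3p arm and chr19:53682173-53682194 for the 5p arm (RefSeq), with the seed, bases 2 to 8, in capitals.
hsa-miR-520f-3p: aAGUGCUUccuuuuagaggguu
hsa-miR-520f-5p: cCUCUAAAgggaagcgcuuucu
No other human mature microRNA in that table had either seed.

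Promoters of 36 of the 42 members were matched in RefSeq by symbol, as 50 windows that each run from 250 bases before an annotated start site to 50 after it. The ISRE was searched as GAAANNGAAA and GAS as TTCNNNGAA, on both strands, with overlapping matches allowed. An ISRE match was found in 28 of the 50 member windows (56%), against 3.57% of all 35116 promoter windows. A GAS match was found in 12 member windows (24%), against 7.66% of all windows. Windows of 1 gene can share bases. By gene, 24 of 36 members held an ISRE match (4.38% of all genes) and 11 a GAS match (9.38%). The members were listed as interferon response genes, so these shares reflect that choice and say nothing about the mimics. The upstream 250 bases of 4 members are shown because each holds an ISRE match, in capitals, and they represent the 3 patterns described further on. IFIT1 stood lower with the control mimic, IFI6 with both mimics, and IFIT5 and PARP14 with miR-520f. The windows are chr10:89392373-89392622 (+) for IFIT1, chr10:89414318-89414567 (+) for IFIT5, chr1:27672193-27672442 (-) for IFI6 and chr3:122680589-122680838 (+) for PARP14, all in GRCh38.p14, 5′ to 3′ on the strand of the gene.
IFIT1: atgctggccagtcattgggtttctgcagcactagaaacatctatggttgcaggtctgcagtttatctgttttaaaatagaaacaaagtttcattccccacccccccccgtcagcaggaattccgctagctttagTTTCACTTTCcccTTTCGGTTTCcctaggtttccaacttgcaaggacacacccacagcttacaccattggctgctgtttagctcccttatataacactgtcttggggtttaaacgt
IFIT5: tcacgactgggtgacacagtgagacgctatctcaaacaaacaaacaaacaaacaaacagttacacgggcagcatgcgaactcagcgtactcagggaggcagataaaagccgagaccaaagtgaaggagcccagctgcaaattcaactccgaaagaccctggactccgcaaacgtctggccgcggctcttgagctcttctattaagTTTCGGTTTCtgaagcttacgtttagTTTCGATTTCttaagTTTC
IFI6: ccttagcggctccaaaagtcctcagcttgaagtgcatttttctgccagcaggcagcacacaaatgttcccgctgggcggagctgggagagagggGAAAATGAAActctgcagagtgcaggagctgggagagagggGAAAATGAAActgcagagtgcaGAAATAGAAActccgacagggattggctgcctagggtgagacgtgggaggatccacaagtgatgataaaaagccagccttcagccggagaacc
PARP14: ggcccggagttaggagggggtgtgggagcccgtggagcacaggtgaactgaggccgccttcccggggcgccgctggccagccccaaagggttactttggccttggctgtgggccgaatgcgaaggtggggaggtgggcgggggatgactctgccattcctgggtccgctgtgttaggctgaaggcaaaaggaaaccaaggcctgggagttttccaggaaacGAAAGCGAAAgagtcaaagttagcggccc
Relative to the start site, IFIT1 holds its 2 matches at positions -116 and -103, and IFI6 its 3 matches at -156, -115 and -93. The last of 3 matches in IFIT5 runs across the start site and is shown in part. PARP14 holds 1 ISRE match, at -29, and 1 GAS match, at -40. The ISRE match of DTX3L and that of a PARP9 window are the same 10 bases, at chr3:122564332-122564341. The genes run in opposite directions, and the match crosses the annotated start of DTX3L and lies at -41 in 1 of the 2 PARP9 windows, while the other PARP9 window holds none. A match is a stretch of letters and was not measured as a bound site.

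**Figure D1:**
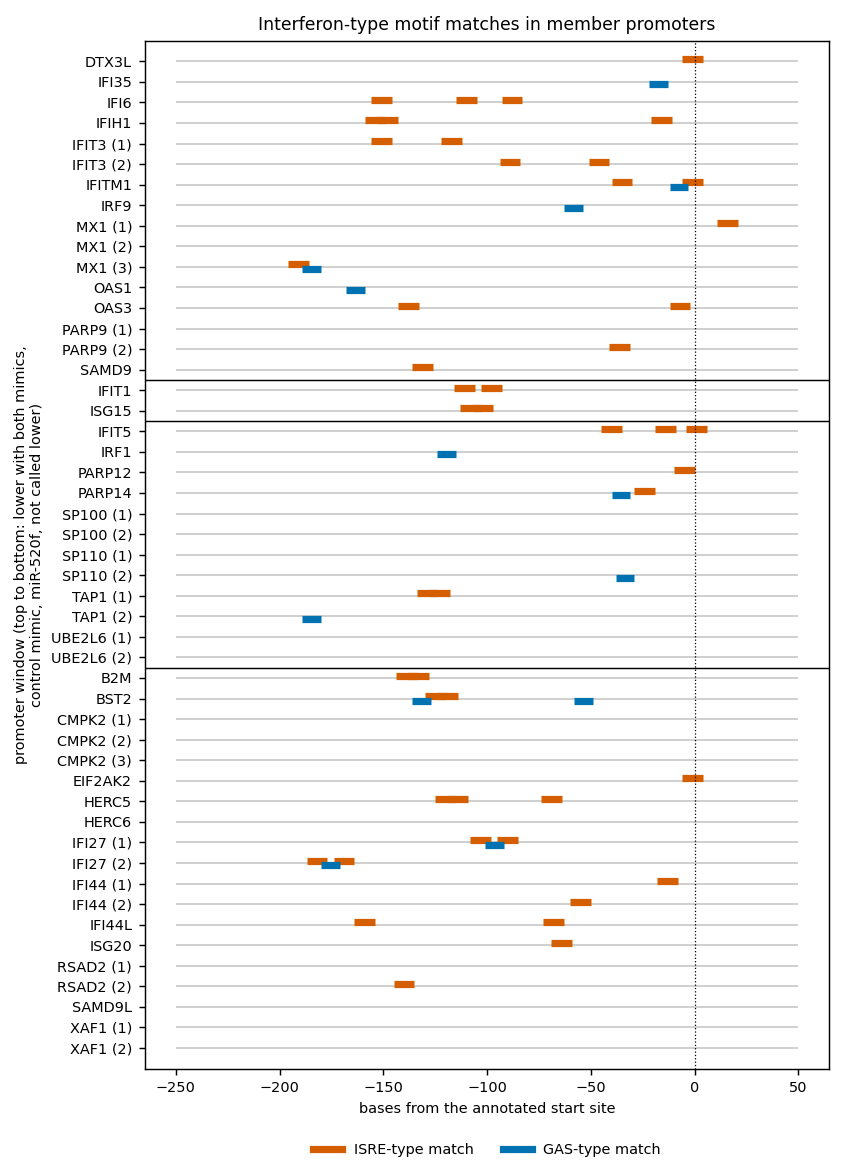
Motif matches in the promoter windows of measured members, by distance in bases from the annotated start site (dotted line). Orange bars are ISRE matches and blue bars GAS matches, each grey line is 1 window, and windows of 1 gene are numbered. From top to bottom the blocks hold members lower than in non-transfected cells with both mimics, with the control mimic, with miR-520f, and not called lower. ISRE matches occur in every block, in 11 of 16, 2 of 2, 4 of 12 and 11 of 19 windows from top to bottom. GAS matches occur in 5, 0, 4 and 3 of these windows.

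Of the 41 measured members, 26 were lower than in non-transfected cells with at least 1 mimic and 0 were higher with either. Calls were made in a limma fit over all 14232 genes, at a p under 0.05 after Benjamini-Hochberg adjustment. With miR-520f, 23 of 41 members were lower than in non-transfected cells (13.1% of all genes were) and 0 were higher (14.5% of all genes). With the control mimic, 18 of 41 were lower than in non-transfected cells (8.28% of all genes) and 0 were higher (7.00%). At an unadjusted p under 0.05, 0 members were higher with miR-520f and 1, XAF1, with the control mimic. The median log2 difference of the members was -0.46 with miR-520f and -0.25 with the control mimic, where the median over all genes was -0.03 and 0.01. Both comparisons use the same non-transfected arrays. The members were chosen with earlier results of these data known, so their shares beside all genes are descriptive and no independent test. In bulk RNA, fewer cells that express a gene and less RNA per cell cannot be told apart.

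Called lower with both mimics were 15 members, 36.6% of those measured, where this held for 3.24% of all genes. A further 8 members (19.5%) were called lower with miR-520f and not with the control mimic, where 9.87% of all genes were. Called with the control mimic and not with miR-520f were 3 members (7.32%, against 5.04% of all genes), and 15 were called lower with neither (81.9% of all genes). The difference between the mimics was tested directly, on the same arrays that formed these groups, so the grouping favours some of its outcomes. Against the control mimic, 14 members were lower with miR-520f (12.6% of all genes) and 3 were higher (15.4%). All 8 members called lower with miR-520f and not with the control mimic passed this test, as did 6 of the 15 called with both mimics, and in each of these 14 miR-520f gave the lower level, below both other groups (8.61% of all genes). Of the 3 called with the control mimic and not with miR-520f, IFIT1 and ISG15 passed it with the higher level under miR-520f, and IRF7, called with neither mimic, did so too. The 3 higher members became 1, IFIT1, when miR-520f replicate 1 or 2 was left out.

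**Figure D2:**
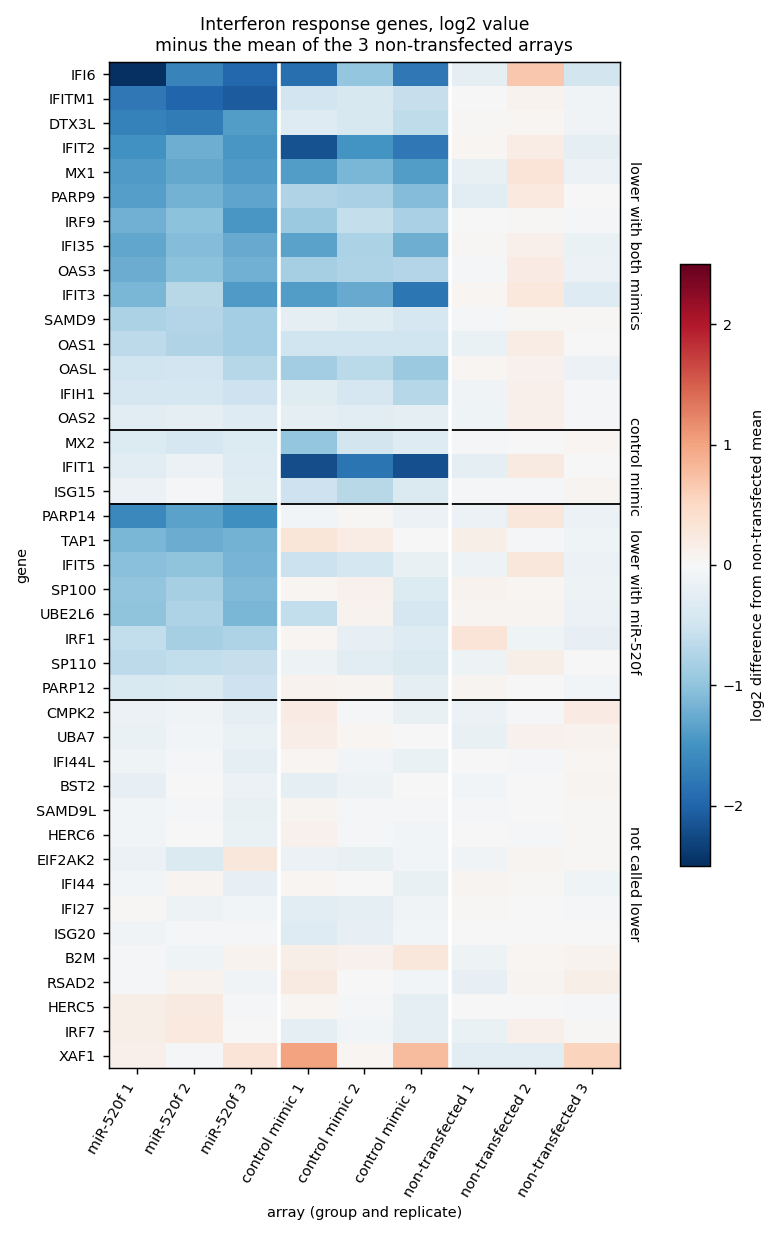
Log2 value of the 41 measured members on each of the 9 arrays, minus the mean of the 3 non-transfected arrays (blue, lower; red, higher). Columns are arrays by group and replicate, and rows are genes in the 4 blocks named at the right. The upper block is blue on all mimic arrays, IFIT1 is darkest on the control mimic arrays, and the third block, from PARP14 to PARP12, is darkest on the miR-520f arrays.

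Among the transcription factors of the pathway, IRF9, the DNA-binding part of the ISRE-binding complex, measured 5.40, 5.57 and 5.13 on the miR-520f arrays, 5.66, 6.0 and 5.79 on the control mimic arrays and 6.60, 6.62 and 6.56 on the non-transfected arrays. The 3 groups did not overlap. IRF9 was lower with miR-520f by a log2 difference of -1.23 (SE 0.12, limma adjusted p = 1.76e-05) and with the control mimic by -0.78 (adjusted p = 0.00119), and the mimics differed (-0.45, adjusted p = 0.0127), a call that was lost without control mimic replicate 2. IRF1, a factor that interferon-gamma induces, averaged 3.48 ± 0.11 with miR-520f, 4.07 ± 0.19 with the control mimic and 4.22 ± 0.28 in non-transfected cells (SD, n = 3 each). It was lower with miR-520f than with either control (log2 differences -0.74 and -0.58, limma adjusted p = 0.00193 and 0.00779 against non-transfected and control mimic cells). IRF7, which amplifies interferon production, was not called against non-transfected cells (0.13 with miR-520f and -0.18 with the control mimic), and was higher with miR-520f than with the control mimic (0.31, limma adjusted p = 0.0373). Leaving out any 1 of miR-520f replicates 1 and 2 or control mimic replicates 1 and 3 ended that call.

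Of the members that sense double-stranded RNA, IFIH1, known as MDA5, averaged 3.71 ± 0.05 with miR-520f, 3.69 ± 0.20 with the control mimic and 4.17 ± 0.12 in non-transfected cells (SD, n = 3 each), with log2 differences from non-transfected cells of -0.46 for miR-520f and -0.48 for the control mimic (limma adjusted p = 0.00600 and 0.00960). The IFIH1 call with the control mimic was lost with unmoderated variances. The mimics differed by 0.02 (95% confidence interval -0.21 to 0.25). EIF2AK2, the kinase PKR that halts translation, was not called in any comparison, with log2 differences of -0.08 and -0.14 against non-transfected cells for miR-520f and the control mimic. Its miR-520f arrays spread from 8.53 to 9.16.

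The 4 measured IFIT genes, which lie in 1 cluster on chromosome 10 and bind the ends of foreign RNA or partner with those that do, did not respond alike. IFIT1 measured 7.18, 7.28 and 7.11 with miR-520f, 5.23, 5.62 and 5.24 with the control mimic and 7.20, 7.65 and 7.45 in non-transfected cells. The control mimic arrays stood apart below both other groups, which overlapped. Control mimic cells were 4.21-fold below non-transfected cells (log2 difference -2.07, SE 0.13, limma adjusted p = 8.63e-06), whereas miR-520f cells were not called (-0.24, 95% confidence interval -0.53 to 0.04) and stood 1.83 above control mimic cells (adjusted p = 2.24e-06). Of the members, IFIT1 showed the largest difference between control mimic and non-transfected cells and the only one between the mimics above 0.5 in which miR-520f was higher. It has a close relative next to it in the cluster, IFIT1B, from which a probe set may also take signal.

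IFIT2 measured 5.29, 5.58 and 5.35 with miR-520f, 4.62, 5.31 and 5.01 with the control mimic and 6.84, 6.98 and 6.58 in non-transfected cells. Its log2 differences from non-transfected cells were -1.39 with miR-520f and -1.82 with the control mimic (limma adjusted p = 7.88e-05 and 5.91e-05). IFIT3, a partner that stabilises IFIT1, measured 3.99, 4.44 and 3.71 with miR-520f, 3.74, 3.87 and 3.32 with the control mimic and 5.18, 5.39 and 4.81 in non-transfected cells (-1.08 and -1.49). In both of these genes the mimic arrays lay below all non-transfected arrays and overlapped each other. The mimics differed by 0.43 in IFIT2 and 0.40 in IFIT3 (95% confidence intervals 0.07 to 0.79 and -0.04 to 0.85; limma adjusted p = 0.0732 and 0.180). Both differences were called with a replicate block, under 3 of 17 alternative settings in all for IFIT2 and 1 of 17 for IFIT3. IFIT5 measured 4.43, 4.47 and 4.32 with miR-520f, 4.94, 5.04 and 5.30 with the control mimic and 5.36, 5.76 and 5.32 in non-transfected cells. It was lowest with miR-520f, below non-transfected cells by -1.07 and below control mimic cells by -0.69 (limma adjusted p = 8.05e-05 and 0.00158). IFIT5 with the control mimic was not called (-0.38, adjusted p = 0.0648) and passed without control mimic replicate 3. Of the neighbours IFIT1 and IFIT5, each with ISRE matches in the window shown, the first was thus lowest with the control mimic and the second with miR-520f.

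**Figure D3:**
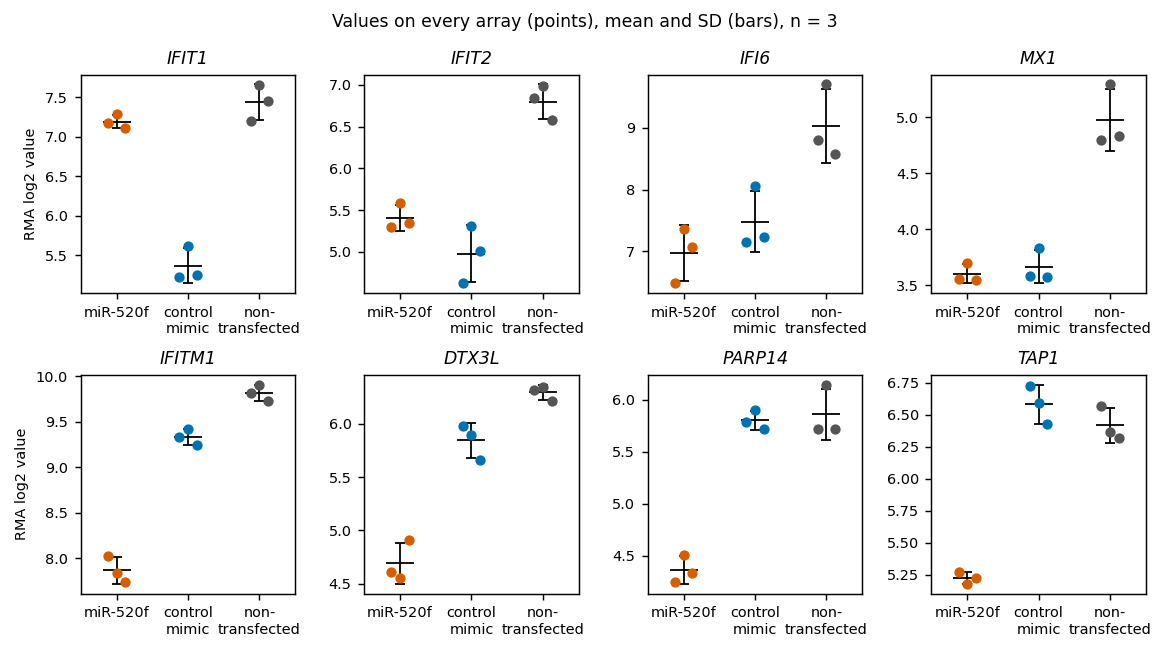
RMA log2 value of 8 members on each array (points), with group mean and SD (black bars, n = 3), for miR-520f, control mimic and non-transfected cells from left to right. IFIT1 is low on the 3 control mimic arrays (5.23 to 5.62), while PARP14 and TAP1 are low on the 3 miR-520f arrays (4.25 to 4.51 and 5.18 to 5.28). IFIT2, IFI6 and MX1 are low on the arrays of both mimics. The vertical axes differ between panels and do not start at 0.

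The MX and OAS genes were mostly lower with both mimics. MX1, a dynamin-like GTPase that traps viral particles, measured 3.56, 3.70 and 3.55 with miR-520f, 3.58, 3.84 and 3.58 with the control mimic and 4.80, 5.29 and 4.83 in non-transfected cells. Both mimic groups lay below every non-transfected array, by -1.37 and -1.31 (limma adjusted p = 1.72e-05 and 0.000108), and the mimics differed by -0.06 (95% confidence interval -0.35 to 0.22). Its neighbour MX2, a related GTPase, was lower with the control mimic (7.35 ± 0.34, against 7.93 ± 0.04 in non-transfected cells; -0.58, limma adjusted p = 0.0137). That call was lost with unmoderated variances. With miR-520f MX2 averaged 7.56 ± 0.05 (SD, n = 3 each) and was not called (-0.37, limma adjusted p = 0.0649), though it passed under 6 of 17 alternative settings. The mimics were not separated (0.21, 95% confidence interval -0.09 to 0.51).

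OAS enzymes make a small messenger that activates an RNA-cutting enzyme, RNase L. OAS3 measured 3.76, 3.98 and 3.80 with miR-520f, 4.18, 4.23 and 4.26 with the control mimic and 4.95, 5.20 and 4.85 in non-transfected cells, 3 ranges that did not overlap. Its log2 differences from non-transfected cells were -1.15 and -0.78, and between the mimics -0.38 (limma adjusted p = 8.18e-06, 0.000415 and 0.0132); without miR-520f replicate 1 the mimics were no longer separated (-0.33, adjusted p = 0.0616). OAS1 was lower by -0.75 with miR-520f and -0.50 with the control mimic, and OASL, a relative without the enzyme activity, by -0.56 and -0.82. OAS2 was lower by -0.28 with miR-520f and -0.25 with the control mimic, at levels of 2.80 to 3.26 near the lower end of the scale. These OAS2 calls were lost under 4 and 12 of 16 alternative settings, including without non-transfected replicate 2 in both cases. The RNA exonuclease ISG20 was not called (-0.06 and -0.20).

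Of the 5 measured members of the ISG15 system, ISG15 itself averaged 5.24 ± 0.13 with miR-520f, 4.88 ± 0.17 with the control mimic and 5.41 ± 0.05 in non-transfected cells (SD, n = 3 each). It was lower with the control mimic (-0.53, limma adjusted p = 0.00418), was not called with miR-520f (-0.17, 95% confidence interval -0.38 to 0.05), and stood 0.36 higher with miR-520f than with the control mimic (adjusted p = 0.0159). The last call was lost under 4 of 17 alternative settings, among them without miR-520f replicate 1 or 2 or control mimic replicate 2. UBE2L6, the conjugating enzyme of ISG15, measured 4.92, 5.15 and 4.79 with miR-520f, 5.30, 6.01 and 5.50 with the control mimic and 6.0, 5.98 and 5.79 in non-transfected cells. The miR-520f arrays lay below all others (-0.97 and -0.65 against non-transfected and control mimic cells, limma adjusted p = 0.000946 and 0.0105). With the control mimic UBE2L6 was not called (-0.32), and it passed without control mimic replicate 2 (-0.52, limma adjusted p = 0.0226). The activating enzyme UBA7 and the ligases HERC5 and HERC6 were not called in any comparison.

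All 4 measured genes of the PARP group were called lower with miR-520f than in both other groups, where 8.61% of all genes were. For PARP9 the call between the mimics depended on the fit, as given below. PARP14, which attaches single ADP-ribose units to proteins, measured 4.25, 4.51 and 4.34 with miR-520f, 5.79, 5.90 and 5.72 with the control mimic and 5.72, 6.14 and 5.72 in non-transfected cells. The miR-520f arrays were more than 1 unit below every other array, while the other groups overlapped. Its log2 differences were -1.49 against non-transfected and -1.44 against control mimic cells (SE 0.12 each, limma adjusted p = 5.79e-06 and 6.90e-06), and the control mimic differed from non-transfected cells by -0.06 (95% confidence interval -0.32 to 0.21). DTX3L, a ubiquitin ligase that works in a complex with PARP9, measured 4.61, 4.55 and 4.91 with miR-520f, 5.98, 5.90 and 5.66 with the control mimic and 6.32, 6.35 and 6.22 in non-transfected cells. PARP9 measured 2.98, 3.17 and 3.04 with miR-520f, 3.60, 3.53 and 3.27 with the control mimic and 4.08, 4.60 and 4.36 in non-transfected cells. Both partners had 3 groups that did not overlap, lowest with miR-520f and highest in non-transfected cells. The PARP9 values with miR-520f lay near the lower end of the scale.

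DTX3L was lower by -1.61 with miR-520f and by -0.45 with the control mimic, and PARP9 by -1.29 and -0.88 (limma adjusted p = 1.84e-06, 0.0178, 2.91e-05 and 0.00113 in the order given). Between the mimics DTX3L differed by -1.16 and PARP9 by -0.41 (adjusted p = 1.73e-05 and 0.0378). The DTX3L call with the control mimic was lost under 4 of 17 alternative settings, among them without control mimic replicate 3 or non-transfected replicate 1 or 2. The PARP9 call between the mimics was lost under 8 of 17, among them without miR-520f replicate 1 or 3, control mimic replicate 1 or 2 or non-transfected replicate 3. PARP12, another ADP-ribosyltransferase, averaged 6.16 ± 0.08 with miR-520f, 6.55 ± 0.19 with the control mimic and 6.58 ± 0.06 in non-transfected cells (SD, n = 3 each; -0.42 against non-transfected cells, limma adjusted p = 0.00675).

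Among the small and membrane proteins, IFI6, an endoplasmic reticulum protein that hinders viral replication, measured 6.48, 7.37 and 7.07 with miR-520f, 7.15, 8.05 and 7.24 with the control mimic and 8.81, 9.70 and 8.57 in non-transfected cells. Its arrays with either mimic lay below all non-transfected arrays, with a wide spread in every group. The log2 differences were -2.06 and -1.55 (SE 0.32 each, limma adjusted p = 0.000600 and 0.00772), a 4.16-fold lower level with miR-520f. The IFI6 call with the control mimic was lost with unmoderated variances. The mimics were not separated (-0.51, 95% confidence interval -1.21 to 0.20), though this difference was called under 1 of 17 alternative settings, the replicate block. IFITM1, which blocks viral entry at the cell membrane, measured 8.03, 7.84 and 7.74 with miR-520f, 9.33, 9.42 and 9.25 with the control mimic and 9.82, 9.91 and 9.73 in non-transfected cells. The 3 groups were fully apart: miR-520f cells were 3.88-fold below non-transfected cells (-1.95, limma adjusted p = 1.79e-07) and control mimic cells 1.40-fold below them (-0.48, adjusted p = 0.00446), and the mimics differed by -1.47 (adjusted p = 8.20e-07). IFITM1 is close in sequence to IFITM2 and IFITM3, which a probe set may also detect. IFI35, a leucine zipper protein, measured 5.86, 6.07 and 5.89 with miR-520f, 5.82, 6.36 and 5.93 with the control mimic and 7.19, 7.29 and 6.99 in non-transfected cells, lower with each mimic (-1.22 and -1.12) and overlapping between them (-0.09, 95% confidence interval -0.39 to 0.20).

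The nuclear body proteins SP100 and SP110 were lower with miR-520f. SP100 measured 3.18, 3.35 and 3.08 with miR-520f, 4.23, 4.28 and 3.84 with the control mimic and 4.27, 4.22 and 4.04 in non-transfected cells, with the miR-520f arrays below all others (-0.97 and -0.91 against non-transfected and control mimic cells, limma adjusted p = 0.000130 and 0.000198). SP110 was lower by -0.62 and -0.36 in the same comparisons. With the control mimic SP110 was not called (-0.25, limma adjusted p = 0.0864), and it passed without control mimic replicate 1 or non-transfected replicate 1. The SP100 values with miR-520f lay near the lower end of the scale. The antiviral protein SAMD9 was lower with both mimics (-0.80 with miR-520f and -0.33 with the control mimic) and lower with miR-520f than with the control mimic (-0.47, limma adjusted p = 0.000528), at levels of 2.72 to 3.60 near the lower end of the scale. Its call with the control mimic was lost without non-transfected replicate 2. TAP1, which carries peptides into the endoplasmic reticulum, measured 5.28, 5.18 and 5.23 with miR-520f, 6.73, 6.59 and 6.42 with the control mimic and 6.57, 6.36 and 6.32 in non-transfected cells. The miR-520f arrays lay more than 1 unit below all others, by -1.19 against non-transfected and -1.35 against control mimic cells (limma adjusted p = 5.50e-06 and 2.07e-06), and the control mimic differed from non-transfected cells by 0.17 (95% confidence interval -0.04 to 0.37).

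**Figure D4:**
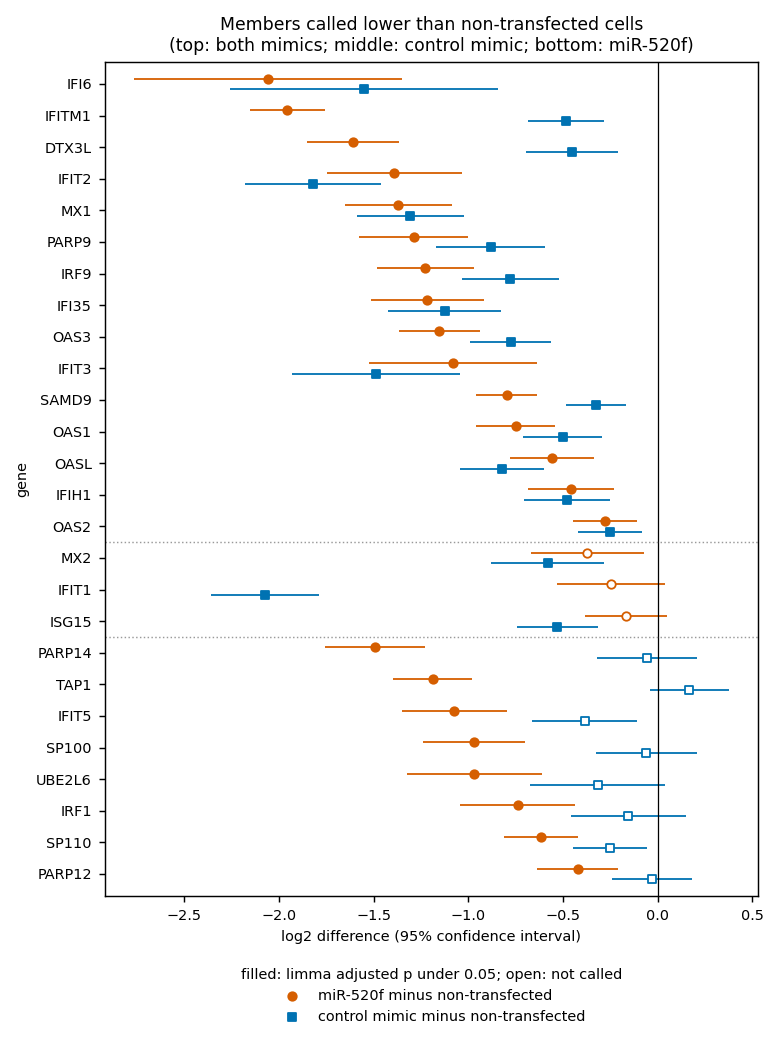
Log2 differences from non-transfected cells of the 26 members called lower with at least 1 mimic, for miR-520f (orange circles) and the control mimic (blue squares), with 95% confidence intervals. Filled symbols passed at a limma adjusted p under 0.05 and open symbols did not. Both sets of differences use the same non-transfected arrays. The upper block passed with both mimics, IFIT1 in the middle block reaches -2.07 with the control mimic against -0.24 with miR-520f, and PARP14 in the lower block reaches -1.49 with miR-520f against -0.06 with the control mimic.

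The 15 members called lower with neither mimic were EIF2AK2, IRF7, ISG20, UBA7, HERC5, HERC6, IFI27, IFI44, IFI44L, BST2, CMPK2, RSAD2, SAMD9L, XAF1 and B2M. Their log2 differences from non-transfected cells ran from -0.16 to 0.14 with miR-520f and from -0.20 to 0.61 with the control mimic. Of these 15, 11 averaged under 4 in non-transfected cells, among them RSAD2 and CMPK2, neighbours that are strongly induced by interferon in many cells, at 3.09 ± 0.18 and 3.63 ± 0.18 (SD, n = 3 each). Of the 15 members lower with both mimics, 3 averaged under 4 in non-transfected cells. B2M, the light chain of the class I complex that TAP1 supplies with peptide, was among the bright members, at 10.03 ± 0.10 with miR-520f, 10.24 ± 0.09 with the control mimic and 10.06 ± 0.11 in non-transfected cells (SD, n = 3 each), and was not called in any comparison. XAF1, which promotes apoptosis, spread over more than 0.8 within both control groups, from 7.20 to 8.18 with the control mimic and from 6.87 to 7.72 in non-transfected cells, and was called higher with the control mimic when control mimic replicate 2 or non-transfected replicate 3 was left out (0.61 over all arrays, not called). Calls of neighbours differed elsewhere too, where SAMD9 passed and SAMD9L did not (-0.10 with miR-520f), with ranges of 2.72 to 3.60 and 2.78 to 3.02 over the 9 arrays. SAMD9L averaged 2.96 in non-transfected cells, already near the lower end of the scale, so this pair does not show that the neighbours responded differently.

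Other genes of the pathway were taken from a list of 132, also chosen with earlier results of these data known. Of these, 95 were measured. Against non-transfected cells, 31 were lower and 7 higher with miR-520f, where 13.1% and 14.5% of all genes were. With the control mimic 12 were lower and 6 higher, where 8.28% and 7.00% of all genes were. Between the mimics, 31 were lower and 10 higher with miR-520f, where 12.6% and 15.4% of all genes were. The list's median log2 difference was -0.14 for miR-520f against non-transfected cells and -0.04 for the control mimic. Of 9 interferon genes measured, IFNA2 was called, lower with miR-520f (-0.44, limma adjusted p = 0.0457) at a mean level of 3.03, and close copies of it may share its probes. IFNB1, a type I interferon that many cell types make on infection, measured between 2.47 and 2.61 on all 9 arrays, near the bottom of the scale.

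The receptor chains of type I interferon, IFNAR1 and IFNAR2, were not called in any comparison (log2 differences of -0.13 to 0.12). IFNGR2, a chain of the interferon-gamma receptor, was lower with both mimics (-0.46 and -0.44), and IFNGR1, its partner, was higher with miR-520f than in both other groups (0.67 and 0.47 against non-transfected and control mimic cells). The kinase JAK1 was higher with the control mimic than in non-transfected cells (0.44, limma adjusted p = 0.0105) and lower with miR-520f than with the control mimic (-0.59), and JAK2, TYK2 and the receptor chain IFNLR1 were not called. IRF2, a factor that binds the ISRE and mostly represses, measured 5.65, 5.89 and 5.81 with miR-520f, 7.51, 7.42 and 7.16 with the control mimic and 7.19, 6.92 and 6.86 in non-transfected cells. The miR-520f arrays were about 1 unit below all others (-1.21 and -1.58 against non-transfected and control mimic cells, limma adjusted p = 1.90e-05 and 2.81e-06). IRF3, activated by RNA sensing, was lower with the control mimic (-0.37) and 0.43 higher with miR-520f than with the control mimic. STAT3, which many cytokines activate, was lower with miR-520f (-0.40 against non-transfected and -0.50 against control mimic cells).

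Among the sensors, RIGI, which recognises RNA with foreign ends, had an order of groups like that of IFIT1. RIGI measured 6.58, 6.70 and 6.81 with miR-520f, 5.67, 5.87 and 5.80 with the control mimic and 6.61, 6.90 and 6.72 in non-transfected cells. The control mimic arrays lay below all others (-0.96 against non-transfected cells, limma adjusted p = 0.000111), miR-520f differed from non-transfected cells by -0.04 (95% confidence interval -0.26 to 0.17), and miR-520f exceeded the control mimic by 0.92 (adjusted p = 3.38e-05). The adaptors MYD88 (-1.28 and -0.64), TICAM1 (-0.58 and -0.46) and STING1 (-0.54 and -0.43) and the RNA-binding ZC3HAV1 (-0.58 and -0.43) were lower with miR-520f than in non-transfected and control mimic cells, while MAVS, the adaptor of RIGI, was higher (0.40 and 0.44). MYD88 was also lower with the control mimic than in non-transfected cells (-0.65), and the kinase TBK1 was higher with miR-520f than in non-transfected cells (0.47). Of the genes that restrain the pathway, SOCS3 was lower with miR-520f (-0.76 against non-transfected and -1.18 against control mimic cells) and higher with the control mimic than in non-transfected cells (0.42). The phosphatase PTPN6 and the corepressor TRIM28 were lower with the control mimic (-0.38 and -0.33) and higher with miR-520f than with the control mimic (0.61 and 0.39), and the phosphatase PTPN2 was higher with miR-520f than in non-transfected cells (0.53).

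Genes of antigen presentation other than TAP1 and B2M, from the list chosen with earlier results known, were mostly lower with miR-520f. Of 11 measured, 8 were lower with miR-520f than in non-transfected cells (13.1% of all genes) and 8 lower than in control mimic cells (12.6%), with 0 higher by limma in either comparison, also at an unadjusted p under 0.05 (14.5% and 15.4% of all genes were called higher). Between control mimic and non-transfected cells 0 of the 11 were called by limma, where 15.3% of all genes were, and 2 were lower and 2 higher at an unadjusted p under 0.05. The median log2 difference from non-transfected cells was -0.67 with miR-520f and -0.03 with the control mimic, and -0.60 between the mimics. ERAP1, which trims peptides, measured 4.45, 4.54 and 4.34 with miR-520f, 5.98, 5.81 and 5.77 with the control mimic and 5.84, 5.71 and 5.68 in non-transfected cells, with the miR-520f arrays more than 1 unit below all others (-1.30 against non-transfected and -1.41 against control mimic cells). In the same comparisons PSMB8, a subunit of the immunoproteasome encoded next to TAP1, was lower by -0.86 and -1.11, TAP2, the partner of TAP1, by -0.67 and -1.02, and the peptide editor TAPBP by -0.80 and -0.49. The class I molecule HLA-E (-0.68 and -0.63) and the proteasome activator subunit PSME1 (-0.65 and -0.39) were lower too. PSME2, the other activator subunit, chosen for its spread after its values were seen, was not called, with values from 2.86 on control mimic replicate 1 to 7.66.

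**Figure D5:**
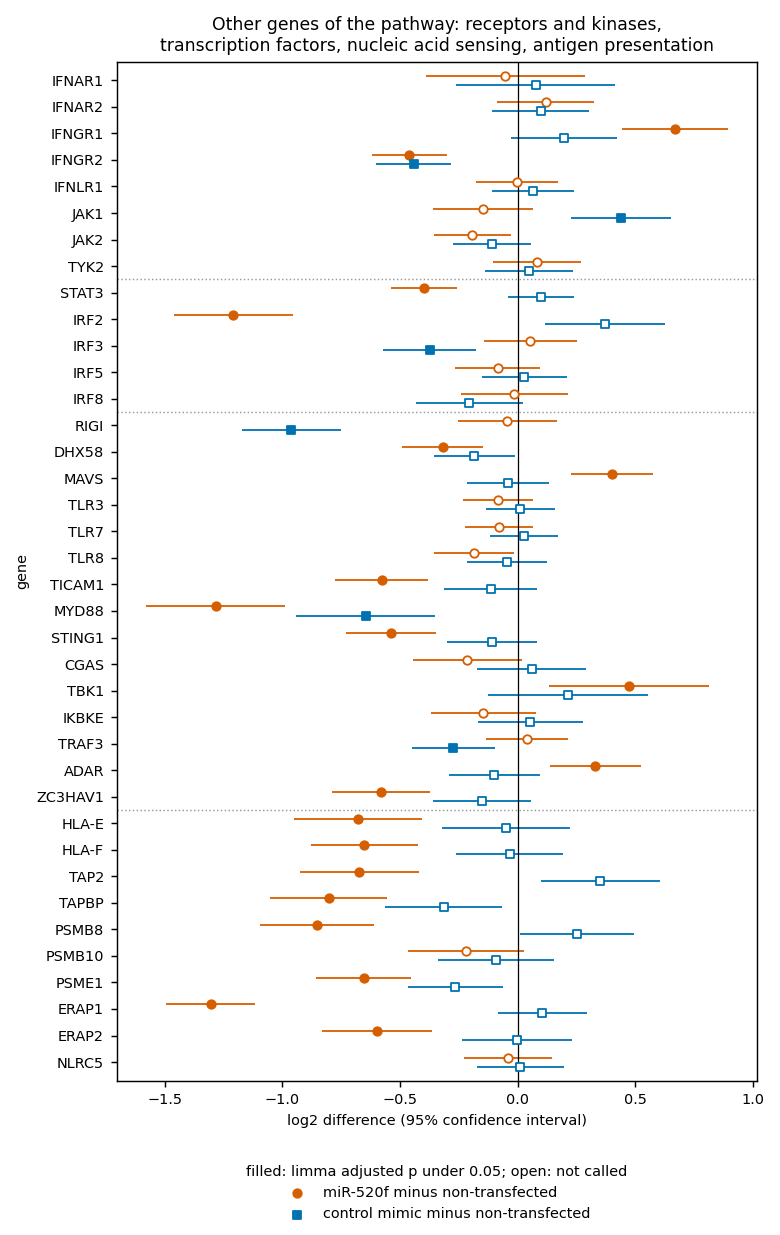
Log2 differences from non-transfected cells of other pathway genes, for miR-520f (orange circles) and the control mimic (blue squares), with 95% confidence intervals. Filled symbols passed at a limma adjusted p under 0.05 and open ones did not, and both sets share the non-transfected arrays. Dotted lines separate receptors and kinases, transcription factors, nucleic acid sensing and antigen presentation, from top to bottom, and PSME2 is left out for its wide interval. In the last block 8 genes pass with miR-520f and 0 with the control mimic, while RIGI passes with the control mimic at -0.96.

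Of 42 further interferon-induced genes measured, 13 were lower and 2 higher with miR-520f than in non-transfected cells, where 13.1% and 14.5% of all genes were. With the control mimic 5 were lower and 4 higher, shares near the 8.28% and 7.00% of all genes. TRIM14, an adaptor of antiviral signalling, was lower with both mimics to a similar extent (-1.13 and -1.03, with -0.10 between the mimics). LGALS3BP (-1.73 and -0.72), the tryptophanyl-tRNA synthetase WARS1 (-1.43 and -0.55) and TRIM21 (-1.08 and -0.62) were lower with both and lower with miR-520f than with the control mimic. SLFN5 measured 3.78, 3.75 and 3.60 with miR-520f, 5.04, 5.23 and 5.08 with the control mimic and 5.50, 5.20 and 5.01 in non-transfected cells, so that only the miR-520f arrays stood apart (-1.52 against non-transfected cells, limma adjusted p = 4.20e-06). APOL6, an apolipoprotein L, was lower with miR-520f (-0.76 against non-transfected and -1.04 against control mimic cells) and higher with the control mimic than in non-transfected cells (0.28).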

How the data were processed

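RNA of 9 PANC-1 cultures was amplified, labelled with biotin and hybridised to Affymetrix arrays. The deposited values are log2 intensities per probe set, normalized by the authors; the submitters' processing notes name RMA, Partek 6.6 and hg18, without settings. Of 22011 probe sets, 14432 carried a single gene symbol in the platform annotation, 2408 several and 5171 none. The probe set with the highest mean over 9 arrays stood for each of 14232 genes. limma 3.58.1 in R 4.3.3 fitted 1 mean per group (6 residual degrees of freedom, eBayes), with Benjamini-Hochberg adjustment over all genes, and the procedure was tested on simulated data. Comparisons were miR-520f against non-transfected, control mimic against non-transfected and miR-520f against control mimic. Every member called in a comparison was named, the 16 with the largest called differences with all array values, and of each pathway list up to 6 called genes, largest first, beside receptors, kinases, IRF3, RIGI and IFNB1. The members and lists were chosen with earlier results of these data known. Promoter and microRNA sequences came from RefSeq, GRCh38.p14. Alternatives changed normalization, filter, moderation, fold threshold, probe set summary, arrays and replicate block.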

Additional observations from a re-analysis of the deposited data

How the results depend on the processing

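In the 17 alternative fits, 22 of 23 members called lower with miR-520f than in non-transfected cells, 12 of 18 with the control mimic and 10 of 17 called between the mimics passed every time, and 0 called differences reversed. Leaving out each array in turn gave 22 to 24 and 15 to 18 members lower against non-transfected cells with miR-520f and the control mimic, and 12 to 16 lower between the mimics. It gave 0 to 1 members higher with the control mimic (1, XAF1, without control mimic replicate 2 or non-transfected replicate 3) and 1 to 4 higher with miR-520f than with the control mimic (1 without miR-520f replicate 1 or 2). Members called lower with both mimics then numbered 12 to 16. Those called with the control mimic and not with miR-520f numbered 2 to 3, and the reverse 8 to 10. Over all genes, 780 to 1140 were then lower and 614 to 1041 higher with the control mimic, against 1178 and 996 in the full fit, with the lowest counts without non-transfected replicate 2. Unmoderated variances gave 751 genes lower and 536 higher with the control mimic, and 1 member higher with miR-520f than with the control mimic. Members lower with the control mimic fell from 18 to 13. Those lower with both mimics fell from 15 to 11, and those called with miR-520f and not with the control mimic rose from 8 to 12. Calls between the mimics lost here included those of IRF1 and UBE2L6. With a log2 difference of at least 0.5 also required, 1004 genes were lower and 1059 higher with miR-520f, 513 lower and 470 higher with the control mimic, and 978 lower and 1184 higher between the mimics, where 8 members were lower and 1 higher. That threshold left 10 members lower with both mimics and 10 with miR-520f and not with the control mimic. Centring each array on its median gave 928 genes lower and 1198 higher with the control mimic. Across all genes, deviations from the group means correlated between -0.03 and 0.21 for arrays with the same replicate number. The main fit therefore did not pair cultures by number. In some members, among them IFI6, MX1, IFIT1, IFIT2 and IFIT3, replicate 2 was the highest array in all 3 groups. In others, such as DTX3L and PARP12, no replicate was. The main fit counts any shift shared by a replicate number as spread. With a replicate block, 24 members were lower with miR-520f and 17 with the control mimic, and 1 was higher with the control mimic. Between the mimics 15 were then lower and 6 higher. The members higher under the block included IFIT2 and IFIT3, and IFI6 was then lower with miR-520f than with the control mimic.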

Other observations

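The order of groups seen in IFIT1, ISG15 and RIGI, with the control mimic below both other groups, was looked for over all genes after these values had been seen. It was found in 626 genes (4.40% of those tested), counted as called lower in control mimic than in non-transfected cells and called higher in miR-520f than in control mimic cells, and 2 of the 41 measured members were among them. In 37 of these genes both differences were at least 1 on the log2 scale. Ranked by the smaller of the 2 differences, IFIT1 came second, after PTPMT1, a mitochondrial phosphatase, which averaged 8.79 ± 0.13 with miR-520f, 6.09 ± 0.13 with the control mimic and 8.78 ± 0.09 in non-transfected cells (SD, n = 3 each). Next came MET, the receptor of hepatocyte growth factor, at 7.90 ± 0.18 with miR-520f, 6.18 ± 0.19 with the control mimic and 8.27 ± 0.05 in non-transfected cells, and FAM32A, at 8.65 ± 0.08 with miR-520f, 6.71 ± 0.42 with the control mimic and 8.28 ± 0.06 in non-transfected cells. Of these 3, MET was also called lower with miR-520f than in non-transfected cells (-0.37, limma adjusted p = 0.0279).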
